A study of Homo sapiens with 16 samples.

Results

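The genes described here encode the atypical protein kinase C and partitioning-defective (PAR) polarity machinery: PRKCI and PRKCZ, the genes of both atypical protein kinase C enzymes, PARD3, PARD6A, PARD6B and PARD6G, the genes of their scaffold and adaptor partners, and LLGL1 and LLGL2, the human homologues of the fly gene lethal giant larvae. They were taken by symbol from the count tables, where all 8 were found among 55510 symbols, and all 8 passed the filter on low counts that left 22007 genes to test. The set was selected on the 6 h response of PRKCI. The 6 h changes against vehicle of all 8 genes are therefore given as descriptions without a test. So are the differences between the 24 h and 6 h effects. The doses were compared at 6 h with a test. Its treated libraries also entered the choice of the set, so its p-values are not independent of that choice. The cells were of the established human line CAL51, from a triple-negative breast cancer, with a near-diploid karyotype and 28% tetraploidy, used at passage 10 and grown in DMEM with 10% fetal bovine serum. They were given CC-671, an inhibitor of the spindle checkpoint kinase TTK and of CLK2, a kinase of splicing factors, at 3 or 10 µM, or its vehicle DMSO, for 6 or 24 h. Each treated group had 3 libraries and each DMSO group had 2, 16 in all, made from poly-A RNA and sequenced as strand-specific read pairs. All libraries come from 1 line in culture, with no untreated group apart from DMSO, and the p-values measure only the spread between libraries that the submitters call biological replicates.

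In epithelial cells the atypical kinases are bound by PAR6 adaptors and, with the small GTPase CDC42 and the scaffold PAR3, form the apical PAR complex. The complex and the LGL proteins oppose each other: atypical kinase phosphorylates LGL, which releases LGL from the apical cortex, and LGL in turn binds PAR6 and the kinase on the basolateral side. The kinases are named atypical because, unlike the other protein kinase C enzymes, they need neither calcium nor diacylglycerol. PRKCI is also known as an oncogene amplified in several carcinomas.

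Gene counts summed to between 104609173 and 123789361 read pairs per library. The members themselves held between 439 pairs, for PARD6A, and 18936 pairs, for PRKCI, in a library. Levels are given as CPM, the count per 1000000 gene pairs after scaling of the libraries, and as CPM per kb of exon where genes are compared with each other. The epithelial markers EPCAM, KRT8, KRT18 and KRT19 stood at 239.6 CPM or more in every library, CDH1 at 26.2 to 45.2 CPM and KRT7 at 0.199 to 0.492 CPM. The mesenchymal markers FN1 and VIM stood at 1218.8 to 2040.3 and 208.3 to 343.2 CPM. ZEB1 and CDH2 stood at 61.4 to 73.9 and 26.1 to 33.7 CPM. The 4 mesenchymal markers summed to 2317.2 to 2354.7 CPM with DMSO and to 1823.9 to 1989.4 CPM with CC-671 at 24 h. At 6 h they summed to 1680.5 to 1911.9 and 1585.6 to 1980.5 CPM. The 6 epithelial markers summed to 1593.3 to 1638.6 CPM with DMSO and 1860.7 to 1916.3 CPM with CC-671 at 24 h. Their 6 h sums were 1804.7 to 1824.8 CPM with DMSO and 1790.5 to 1920.4 CPM with CC-671. The receptor genes ESR1 and PGR reached at most 0.0477 CPM, and ERBB2 ranged from 84.7 to 191.5 CPM. The 3 receptor genes, nearly all ERBB2, summed to 178.4 to 188.7 CPM with DMSO and 84.7 to 95.3 CPM with CC-671 at 6 h. The sums at 24 h were 189.5 to 191.6 CPM with DMSO and 108.4 to 120.6 CPM with CC-671. Of the markers of other cell types, CD3E and DCN were at or near 0, whereas PTPRC stood at 5.08 to 13.1, CDH5 at 6.32 to 16.9 and COL3A1 at 196.0 to 261.4 CPM. The 5 leukocyte markers summed to 13.0 to 13.6 CPM with DMSO and to 5.98 to 7.46 CPM with CC-671 at 24 h, and to 10.6 to 12.0 CPM in all 6 h libraries. The 2 endothelial markers found summed to 18.5 to 18.8 CPM with DMSO and to 8.05 to 10.2 CPM with CC-671 at 24 h, and to 10.2 to 12.6 CPM in all 6 h libraries. The 5 fibroblast markers summed to 257.0 to 261.9 CPM with DMSO and to 223.7 to 237.7 CPM with CC-671 at 24 h, and at 6 h to 211.0 to 217.0 and 255.6 to 278.2 CPM. Their part in the results was not tested. In RNA from a whole culture, fewer cells that make a transcript and less transcript per cell cannot be told apart.

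Promoter sequences are shown for the genes that stood farthest from vehicle at 6 h, PRKCI and PRKCZ among those lower and PARD6A and PARD6G among those higher, to set their starts side by side. Each line gives the 250 bases before an annotated start from RefSeq on GRCh38.p14, 5′ to 3′ on the strand of the gene, in lower case. Capitals mark matches, on either strand, to the GC box GGGCGG, the CCAAT box CCAAT and the cyclic AMP response element TGACGTCA, and GC box matches may overlap. Of the 8 genes, 5 were matched in the RefSeq table, which lists several starts for PRKCZ, of which the first is shown. PARD3, PARD6B and LLGL2 were not matched.
PRKCI, chr3:170222174-170222423, + strand: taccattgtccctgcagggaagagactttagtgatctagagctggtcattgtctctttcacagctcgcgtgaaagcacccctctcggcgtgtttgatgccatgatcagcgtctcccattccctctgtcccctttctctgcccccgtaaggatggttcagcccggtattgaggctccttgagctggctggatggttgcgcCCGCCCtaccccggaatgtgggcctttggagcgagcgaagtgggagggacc
PRKCZ, chr1:2050161-2050410, + strand: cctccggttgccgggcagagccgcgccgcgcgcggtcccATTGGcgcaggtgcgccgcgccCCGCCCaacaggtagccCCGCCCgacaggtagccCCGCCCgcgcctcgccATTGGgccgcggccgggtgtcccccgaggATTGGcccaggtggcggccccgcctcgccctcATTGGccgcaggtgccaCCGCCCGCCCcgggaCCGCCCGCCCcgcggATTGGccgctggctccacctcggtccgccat
PARD6A, chr16:67660710-67660959, + strand: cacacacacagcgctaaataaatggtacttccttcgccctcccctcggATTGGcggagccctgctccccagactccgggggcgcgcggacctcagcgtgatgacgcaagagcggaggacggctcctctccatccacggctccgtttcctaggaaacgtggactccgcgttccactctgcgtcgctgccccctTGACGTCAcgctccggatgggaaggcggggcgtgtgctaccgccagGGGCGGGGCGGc
PARD6G, chr18:80247515-80247764, - strand: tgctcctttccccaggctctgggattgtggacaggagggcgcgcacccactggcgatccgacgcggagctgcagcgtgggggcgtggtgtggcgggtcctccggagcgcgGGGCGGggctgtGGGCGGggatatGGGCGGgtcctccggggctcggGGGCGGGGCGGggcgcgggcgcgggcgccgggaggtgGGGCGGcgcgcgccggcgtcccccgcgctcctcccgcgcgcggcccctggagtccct
The PRKCI window holds 1 GC box and no match to the other 2 motifs, and 58.0% of its bases are G or C, the same as the median of 35116 windows of this length in the table. The first PRKCZ window has 79.6% G or C, 7 GC boxes and 5 CCAAT boxes. PARD6A has 66.8% G or C, with 2 GC boxes, 1 CCAAT box and 1 cyclic AMP element, and PARD6G has 80.4% and 6 GC boxes. The LLGL1 window (chr17:18225385-18225634, not printed) has 84.8% and 5 GC boxes. Of all windows, 42.6% hold a GC box, 32.0% a CCAAT box and 1.65% the cyclic AMP element. The TATA box TATAAA and the ETS core CCGGAAG, which 10.7% and 8.52% of all windows hold, are in none of the windows of these 5 genes. The matches describe letters in these windows and nothing about the binding of a factor. The counts were made on another build, hg19, and carry no positions.

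PRKCI encodes protein kinase C iota, the more abundant transcript of the pair of atypical kinases in these cells. In the DMSO libraries it stood at 156 and 158 CPM at 6 h and at 155 and 157 CPM at 24 h. After 6 h of CC-671 the 3 libraries at 3 µM held 28.9, 28.6 and 30.7 CPM and those at 10 µM held 29.6, 24.9 and 27.0 CPM. All 6 treated libraries lay far below both DMSO libraries of that time, and the doses overlapped. The difference, which chose the set, was a log2 fold change of -2.42 ± 0.04 (SE) at 3 µM and -2.53 ± 0.04 at 10 µM, or 5.34-fold and 5.78-fold lower. Among the 12980 genes whose mean log2 CPM over the libraries reached 1, PRKCI had rank 6 from the lowest at each dose.

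At 24 h, PRKCI stood at 142, 146 and 148 CPM with 3 µM and at 151, 147 and 151 CPM with 10 µM. These libraries lay just below those of DMSO, and all were several times above every treated library at 6 h. Against DMSO at 24 h the fold change was -0.10 ± 0.04 at 3 µM (adjusted p = 0.0382) and -0.06 ± 0.04 at 10 µM (adjusted p = 0.222, 95% interval -0.14 to 0.02). Without scaling factors the change at 10 µM turned to 0.05, and in the fit of only the groups compared it was called lower, at -0.05 (adjusted p = 0.0241). The call for PRKCI at 3 µM was lost without scaling factors (adjusted p = 0.949), under the stricter filter (0.191), without replicate 1 or 2 of DMSO at 24 h (0.1 and 0.15) and without replicate 1 or 2 of 3 µM at 24 h (0.12 and 0.0606), over a range of 0.000598 to 0.949. The 24 h effect exceeded the 6 h effect by 2.31 ± 0.06 at 3 µM and 2.47 ± 0.06 at 10 µM. Of 16 genes at least 4-fold lower at both doses at 6 h, 4 were within 0.2 log2 units of DMSO at both doses at 24 h, PRKCI among them.

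PRKCZ encodes protein kinase C zeta, the other atypical enzyme. Its levels were 29.5 and 29.1 CPM with DMSO at 6 h and 30.2 and 28.8 CPM with DMSO at 24 h. At 6 h, the 3 µM libraries held 15.6, 14.6 and 14.9 CPM and the 10 µM libraries 15.7, 12.9 and 15.9 CPM, all below both DMSO libraries, with log2 fold changes of -0.97 ± 0.06 and -0.98 ± 0.06. At 24 h the levels were 25.9, 24.7 and 23.6 CPM with 3 µM and 24.3, 25.3 and 23.1 CPM with 10 µM. These lay between the treated libraries of 6 h and those of DMSO, with no overlap with either. PRKCZ thus fell by 0.26 ± 0.06 on the log2 scale at 3 µM (adjusted p = 0.00174) and by 0.29 ± 0.06 at 10 µM (adjusted p = 0.000603) at 24 h. Without scaling factors the call at 3 µM was lost (adjusted p = 0.0622, range 8.9e-08 to 0.0622). PRKCZ overlaps PRKCZ-AS1, FAAP20 and AL590822.2 on the opposite strand. Of the 100-base windows of its transcripts, 5.58% also occur in FAAP20 or AL590822.2. Its counts are therefore uncertain as long as the strand setting of the counting is not given. PRKCI shares 1.10% of its windows with another locus and none with PRKCZ.

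The 2 kinases were also compared as shares of their summed level per kb of exon. PRKCI made up 87.5% ± 0.2 (SD, n = 2) of the sum with DMSO at 6 h. Its share was 71.9% ± 1.1 (n = 3) with 3 µM and 70.5% ± 1.4 (n = 3) with 10 µM at 6 h. At 24 h it was 87.4% ± 0.4 (n = 2) with DMSO, 88.5% ± 0.7 (n = 3) with 3 µM and 89.0% ± 0.6 (n = 3) with 10 µM. The 6 h treated libraries, at 69.0 to 72.9%, lay below all other libraries, at 87.0 to 89.5%. The summed level of both kinases was 30.7 CPM per kb with DMSO and 6.996 and 6.593 CPM per kb with 3 and 10 µM at 6 h, against 30.6, 28.1 and 28.8 CPM per kb at 24 h.

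**Figure D1:**
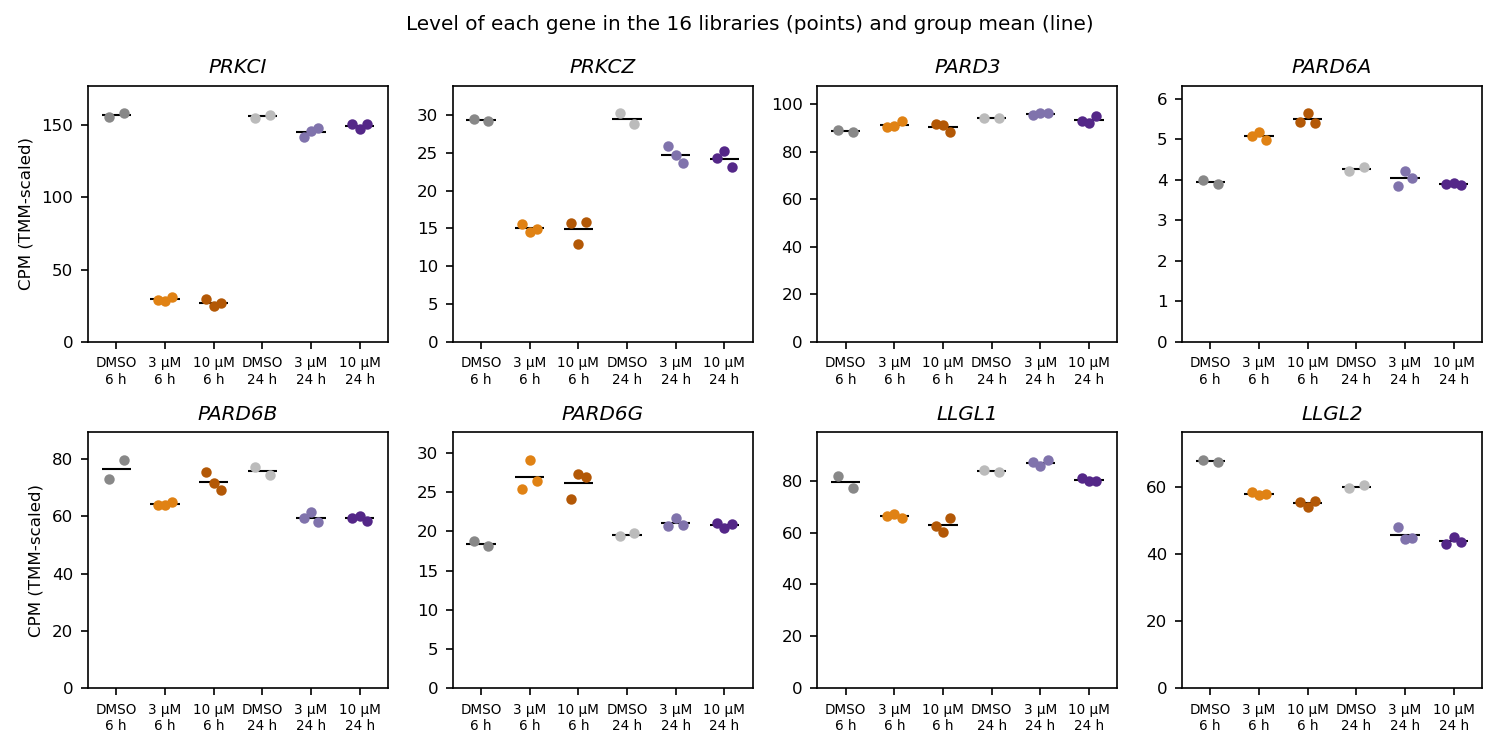
Levels of the 8 genes in CPM after TMM scaling (y axis, linear from 0, own scale per gene) in the 6 groups (x axis); each point is a library and each line the mean of its group. The 6 treated PRKCI libraries at 6 h sit at 24.9 to 30.7 CPM and all other PRKCI libraries at 142 to 158 CPM, while PARD3 stays within 88.3 to 96.2 CPM.

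PARD3 encodes the PAR3 scaffold, which places the complex at the junctions. It ranged from 88.3 to 93.0 CPM over the 8 libraries of 6 h and from 92.3 to 96.2 CPM over the 8 of 24 h. At 6 h its fold changes were 0.05 ± 0.03 at 3 µM and 0.03 ± 0.03 at 10 µM, on the log2 scale. At 24 h they were 0.03 ± 0.03 (adjusted p = 0.49, 95% interval -0.03 to 0.08) and -0.01 ± 0.03 (adjusted p = 0.755, interval -0.07 to 0.05). Its direction at 24 h with 10 µM depended on the scaling: without scaling factors PARD3 was higher by 0.10 (adjusted p = 0.00291), and at 3 µM by 0.13 (adjusted p = 0.000326), where the median of all genes also stood at 0.12 and 0.10. PARD3 at 3 µM was called higher under the stricter filter too (adjusted p = 0.0439).

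PAR6 is encoded by 3 genes, which link the kinases to CDC42. PARD6B, the most abundant per kb of exon, stood at 73.1 and 79.6 CPM with DMSO at 6 h and at 77.2 and 74.3 CPM with DMSO at 24 h. At 6 h it held 64.1, 63.8 and 64.9 CPM with 3 µM and 75.3, 71.7 and 69.1 CPM with 10 µM. Only the 3 µM libraries lay wholly below DMSO, with a log2 fold change of -0.25 ± 0.04, and 10 µM overlapped it, at -0.08 ± 0.04. The doses differed in the test: PARD6B was higher at 10 than at 3 µM at 6 h by 0.16 ± 0.04 (adjusted p = 0.00092), in all 3 libraries. These treated libraries also entered the choice of the set, so this p-value is not independent of it. At 24 h PARD6B held 59.3, 61.4 and 57.8 CPM with 3 µM and 59.3, 60.0 and 58.5 CPM with 10 µM. It fell by 0.35 ± 0.04 at 3 µM (adjusted p = 1.26e-08) and by 0.35 ± 0.04 at 10 µM (adjusted p = 7.23e-09), with every treated library below both DMSO libraries.

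PARD6G went the other way at 6 h. It stood at 18.7 and 18.1 CPM with DMSO, at 25.4, 29.1 and 26.4 CPM with 3 µM and at 24.1, 27.4 and 26.9 CPM with 10 µM. All treated libraries of 6 h were above DMSO, with log2 fold changes of 0.55 ± 0.05 and 0.50 ± 0.05. At 24 h its libraries held 19.4 and 19.7 CPM with DMSO, 20.7, 21.6 and 20.8 CPM with 3 µM and 21.1, 20.5 and 20.9 CPM with 10 µM. The treated libraries were again all higher, yet the changes of 0.10 ± 0.05 (adjusted p = 0.0932) and 0.09 ± 0.05 (adjusted p = 0.144) did not pass the test. PARD6G was called higher at both doses at 24 h without scaling factors, under the stricter filter and in fits of only the groups compared, with adjusted p over all alternatives of 0.00184 to 0.304 at 3 µM and 0.00206 to 0.382 at 10 µM. It overlaps PARD6G-AS1 and AC139100.1 on the opposite strand. PARD6G shares 3.03% of its 100-base windows with AC139100.1, so its counts carry the same uncertainty on strand.

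PARD6A was the least abundant member per kb in the DMSO libraries. It stood at 3.99 and 3.89 CPM with DMSO at 6 h, at 5.08, 5.18 and 4.98 CPM with 3 µM and at 5.43, 5.63 and 5.404 CPM with 10 µM. The groups of 6 h did not overlap, and the log2 fold changes were 0.37 ± 0.07 and 0.48 ± 0.07. At 24 h it held 4.22 and 4.32 CPM with DMSO, 3.85, 4.22 and 4.04 CPM with 3 µM and 3.89, 3.92 and 3.87 CPM with 10 µM. The changes at 24 h were -0.08 ± 0.07 (adjusted p = 0.307) and -0.13 ± 0.07 (adjusted p = 0.0868), neither past the threshold, and without scaling factors PARD6A at 3 µM turned to 0.02.

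As shares of the summed PARD6 level per kb, PARD6B made up 69.7% ± 1.7 (SD, n = 2) with DMSO at 6 h, 58.1% ± 1.4 (n = 3) with 3 µM and 60.7% ± 2.0 (n = 3) with 10 µM. PARD6G made up 18.9% ± 1.1, 27.3% ± 1.4 and 24.6% ± 1.8 in the same order, and PARD6A 11.4% ± 0.6, 14.6% ± 0.3 and 14.7% ± 0.2. The treated libraries of 6 h thus had a smaller share of PARD6B and larger shares of both other genes. None of the 3 shares overlapped with DMSO, whereas the level of PARD6B at 10 µM did. At 24 h PARD6B made up 68.1% ± 0.9 with DMSO, 62.1% ± 0.6 with 3 µM and 62.4% ± 0.5 with 10 µM, and PARD6G 19.7% ± 0.5, 24.5% ± 0.2 and 24.5% ± 0.5. The summed level was 23.2, 23.4 and 25.1 CPM per kb at 6 h and 23.5, 20.3 and 20.1 CPM per kb at 24 h.

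LLGL1 and LLGL2 encode the LGL proteins on the basolateral side. LLGL1 stood at 81.6 and 77.3 CPM with DMSO at 6 h, at 66.4, 67.3 and 65.5 CPM with 3 µM and at 62.6, 60.4 and 65.7 CPM with 10 µM. All treated libraries lay below DMSO, with log2 fold changes of -0.26 ± 0.03 and -0.34 ± 0.03. At 24 h it held 84.1 and 83.3 CPM with DMSO, 87.1, 85.8 and 88.0 CPM with 3 µM and 81.2, 79.9 and 79.9 CPM with 10 µM. The 3 µM libraries were all above DMSO and the 10 µM libraries all below, but neither change passed the test, at 0.06 ± 0.03 (adjusted p = 0.169) and -0.06 ± 0.03 (adjusted p = 0.141). Without scaling factors LLGL1 at 10 µM turned to 0.05 (adjusted p up to 0.592 over the alternatives), and at 3 µM it was called higher there (adjusted p = 0.000525), under the stricter filter (0.0174) and in the fit of only the groups compared (0.0137).

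The doses differed for LLGL1 at 24 h, which was lower at 10 than at 3 µM by 0.11 on the log2 scale, a change of -0.11 ± 0.03 (adjusted p = 0.0236), with no overlap between the groups. The LLGL1 call was lost without replicate 1 or 3 of 3 µM at 24 h (adjusted p = 0.0668 and 0.101) and without replicate 1, 2 or 3 of 10 µM (0.0539, 0.0858 and 0.0933), over a range of 0.00029 to 0.101. LLGL1 overlaps FLII on the opposite strand, and 0 of the 7029 100-base windows of its transcripts occur in another gene.

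LLGL2 was lower with CC-671 at both times. It stood at 68.1 and 67.3 CPM with DMSO at 6 h, at 58.6, 57.7 and 57.8 CPM with 3 µM and at 55.4, 54.0 and 55.9 CPM with 10 µM, which gave log2 fold changes of -0.22 ± 0.04 and -0.30 ± 0.04. At 24 h it held 59.6 and 60.4 CPM with DMSO, 48.1, 44.4 and 44.8 CPM with 3 µM and 42.9, 45.0 and 43.5 CPM with 10 µM. Every treated library lay below the DMSO libraries of its time. LLGL2 fell by 0.39 ± 0.04 at 3 µM (adjusted p = 2.42e-10) and by 0.45 ± 0.04 at 10 µM (adjusted p = 9.48e-12) at 24 h, and both calls held in all alternatives, with adjusted p of at most 1.75e-07 and 8.82e-09. It also fell between the DMSO groups, by 0.17 ± 0.04 from 6 to 24 h (adjusted p = 0.00168). Of the level of both LLGL genes per kb, LLGL2 made up 41.7% ± 0.8 (SD, n = 2), 42.3% ± 0.4 (n = 3) and 42.4% ± 0.6 (n = 3) at 6 h with DMSO, 3 and 10 µM, and 37.6% ± 0.4, 30.6% ± 0.9 and 31.4% ± 0.7 at 24 h. The groups of 6 h overlapped, whereas every treated library of 24 h, at 29.9 to 32.1%, was below both DMSO libraries of that time, at 37.3 and 37.9%.

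**Figure D2:**
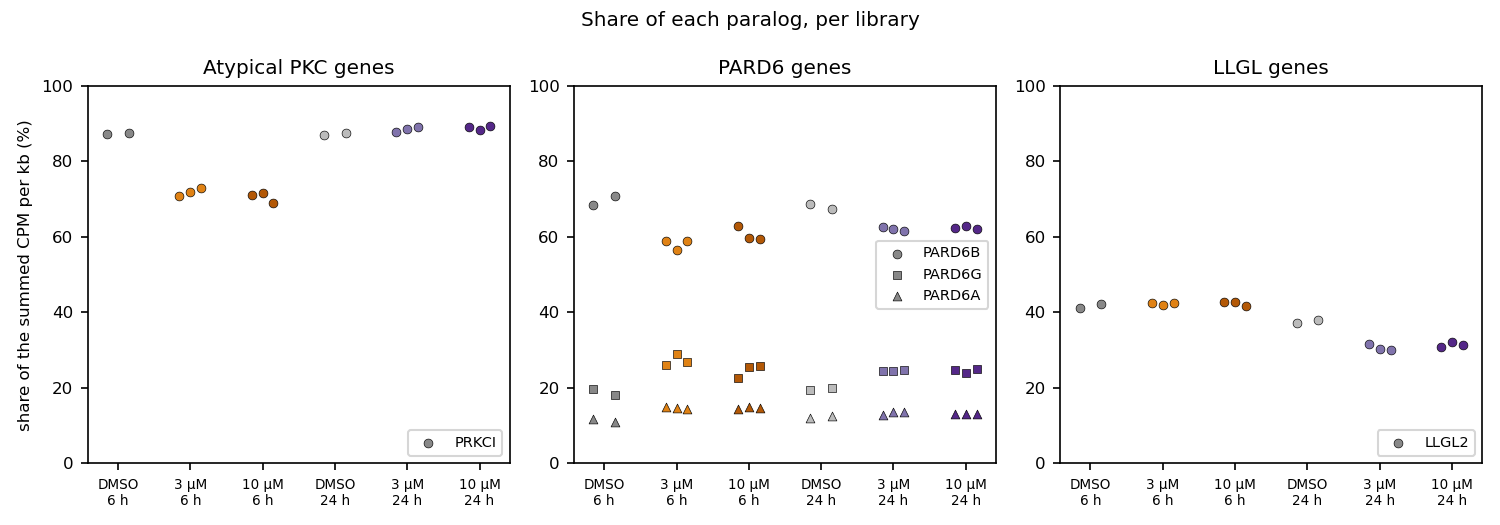
Share of PRKCI in the summed atypical kinase level, of each PARD6 gene in the summed PARD6 level and of LLGL2 in the summed LLGL level, from CPM per kb of exon (y axis, percent) by group (x axis); each point is a library. PRKCI drops from 87.3 to 87.6% with DMSO to 69.0 to 72.9% with CC-671 at 6 h, and LLGL2 is lowest in the 6 treated libraries of 24 h.

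Set against each other per kb of exon, the order of the 8 genes differed between vehicle and CC-671 at 6 h. With DMSO at 6 h it was PRKCI at 26.9 ± 0.3, PARD6B at 16.2 ± 1.0, PARD3 at 13.6 ± 0.1, LLGL1 at 12.0 ± 0.5, LLGL2 at 8.56 ± 0.07, PARD6G at 4.36 ± 0.10, PRKCZ at 3.84 ± 0.03 and PARD6A at 2.65 ± 0.05 CPM per kb (SD, n = 2). No neighbours in this order overlapped between libraries. With 3 µM at 6 h PARD3 came first, at 14.04 ± 0.21 CPM per kb, followed by PARD6B at 13.6 ± 0.1, LLGL1 at 10.0 ± 0.1, LLGL2 at 7.34 ± 0.06, PARD6G at 6.38 ± 0.45, PRKCI at 5.03 ± 0.20, PARD6A at 3.42 ± 0.07 and PRKCZ at 1.97 ± 0.07 (n = 3). PRKCI was thus the first of the 8 in the DMSO libraries of 6 h and the sixth with 3 µM, below PARD6G. At 10 µM it was also sixth, at 4.65 ± 0.40 CPM per kb. At 24 h PRKCI was first again, at 26.7 ± 0.2 with DMSO, 24.8 ± 0.5 with 3 µM and 25.6 ± 0.3 with 10 µM.

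Calls were counted over the set, with p-values adjusted over all 22007 genes, in all comparisons except those against DMSO at 6 h. In the edgeR test at 24 h with 3 µM, 0 of the 8 genes were called higher and 4 lower, PRKCI, PRKCZ, PARD6B and LLGL2, where 29.7% of all genes were higher and 30.9% lower. With 10 µM, 0 were higher and 3 lower, PRKCZ, PARD6B and LLGL2, against 31.3% and 32.3% of all genes. At an unadjusted p under 0.05, and with DESeq2, 0 of the 8 were higher at 24 h at either dose as well. These counts depended on the scaling, the filter and the groups in the fit. At 3 µM, 3 were higher (PARD3, PARD6G and LLGL1) and 2 lower without scaling factors, 3 higher (the same genes) and 3 lower under the stricter filter, and 2 higher (PARD6G and LLGL1) and 4 lower in the fit of only the groups compared. At 10 µM the counts were 2 higher (PARD3 and PARD6G) and 3 lower, 1 higher (PARD6G) and 3 lower, and 1 higher (PARD6G) and 4 lower in the same order. PARD6B and LLGL2 were called lower at both doses in each of these fits. Without scaling factors, 62.9% of all calls at 3 µM and 62.3% at 10 µM were rises at 24 h, against 48.9% and 49.2% with them. The median change over the 8 genes at 24 h was -0.09 at 3 µM and -0.10 at 10 µM, beside 0.00 and 0.01 over all genes.

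Between the doses at 6 h, 1 of the 8 genes was higher at 10 µM, PARD6B, and 0 were lower by edgeR, where 12.0% and 12.9% of all genes were called. At an unadjusted p under 0.05, 3 were lower, and 2 with DESeq2. PRKCI missed the threshold there, at -0.11 ± 0.04 (adjusted p = 0.0562, range 0.00146 to 0.351), and passed it without replicate 1 of 10 µM at 6 h (-0.18, adjusted p = 0.00146), with RLE scaling (0.0448), without scaling factors (0.0443), without the count filter (0.00977) and with DESeq2 (0.0357). LLGL1, at -0.08 ± 0.03 (adjusted p = 0.0677), passed it without replicate 3 of 10 µM (0.0166) and with DESeq2 (0.0377). Between the doses at 24 h, 0 genes were higher and 1 was lower, LLGL1, against 2.49% and 3.85% of all genes by edgeR. At an unadjusted p under 0.05, and with DESeq2, 0 were higher there too. Between the DMSO groups, 1 of the 8 changed, LLGL2, which was lower at 24 h, against 20.5% of all genes changed in either direction. PARD3, 0.09 ± 0.03 higher in the later DMSO group (adjusted p = 0.0554), passed without scaling factors (0.0241), under the stricter filter (0.0266) and with DESeq2 (0.0354). PRKCI, PRKCZ and PARD6B differed by at most 0.01 on the log2 scale between the DMSO groups.

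**Figure D3:**
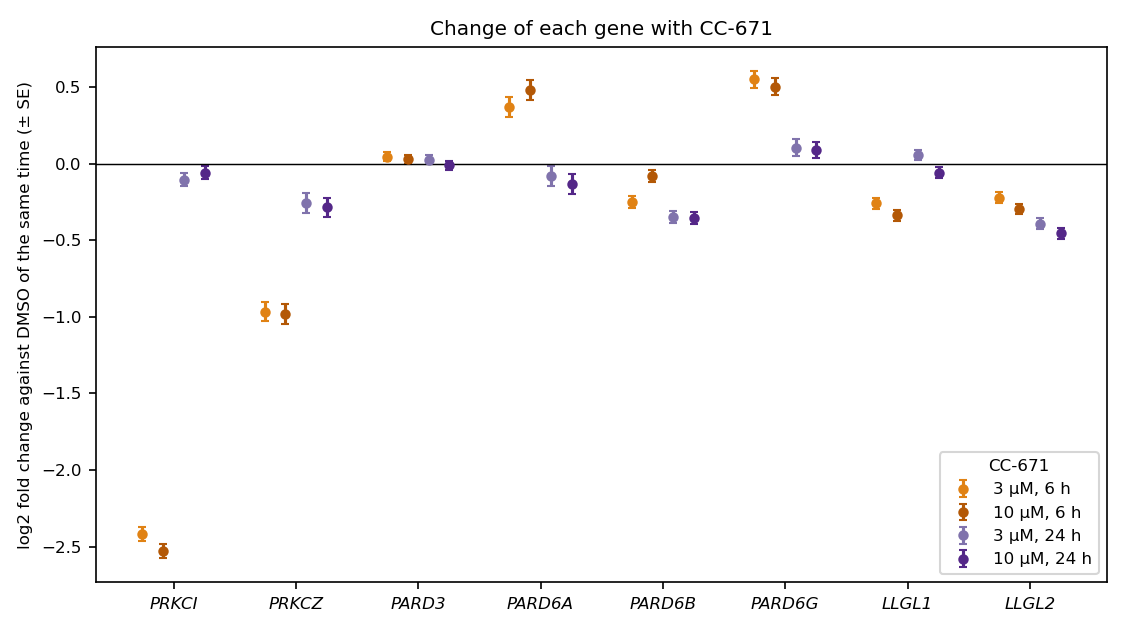
Fitted log2 fold change against DMSO of the same time (y axis) for the 8 genes (x axis), for 3 and 10 µM at 6 and 24 h; bars are standard errors from the fit to 16 libraries. PRKCI and PRKCZ lie lowest at 6 h, and PARD6B and LLGL2 are lower at 24 h, at -0.35 to -0.45.

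The 24 h effect minus the 6 h effect sorted the genes as follows, without a test. PRKCI and PRKCZ had the highest differences, 2.31 and 0.71 at 3 µM and 2.47 and 0.70 at 10 µM. LLGL1 followed at 0.31 ± 0.05 and 0.28 ± 0.05. PARD3 was near 0 at both doses, at -0.02 ± 0.04 and -0.04 ± 0.04, and without scaling factors at 0.06 and 0.06. PARD6B stood at -0.10 ± 0.06 and -0.27 ± 0.06, and LLGL2 at -0.17 ± 0.05 and -0.16 ± 0.05. PARD6G, at -0.44 ± 0.07 and -0.41 ± 0.07, and PARD6A, at -0.45 ± 0.09 and -0.61 ± 0.09, were the lowest.

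The wider polarity network was followed through 40 other genes, of which 39 were tested. PRKCB was at 0 in every library. The lists were chosen with earlier results of these data known. With CC-671 at 6 h, 6 of the 39 rose and 24 fell at 3 µM, where 31.6% of all genes were called higher and 31.6% lower. At 10 µM 9 rose and 20 fell, beside 34.0% and 33.6% of all genes. At 24 h, 7 rose and 16 fell at 3 µM, beside 29.7% and 30.9%, and 5 rose and 17 fell at 10 µM, beside 31.3% and 32.3%. Without scaling factors, tried after the results were seen, 11 rose and 12 fell at 3 µM and 12 rose and 14 fell at 10 µM at 24 h. The same shares of all genes stand behind the counts of each of the 7 lists, and nothing particular to a list is read from its count. The median change of the 39 was -0.19 and -0.20 at 6 h and -0.10 and -0.11 at 24 h, in the order of dose, beside medians over all genes of 0.02, 0.01, 0.00 and 0.01. Between the doses 6 rose and 6 fell at 6 h, beside 12.0% and 12.9% of all genes. At 24 h 2 rose and 1 fell between the doses, beside 2.49% and 3.85%. Between the DMSO groups 12 changed with time, beside 20.5% of all genes.

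Among 4 partners of the complex, PARD3B, the paralogue of PARD3, fell at 6 h by 0.98 ± 0.05 at 3 µM (adjusted p = 6.7e-16) and 0.78 ± 0.05 at 10 µM, and at 24 h by 0.79 ± 0.05 and 0.83 ± 0.05. It stood at 27.9 CPM with DMSO and 14.2 CPM with 3 µM at 6 h, and at 26.7 and 15.5 CPM at 24 h. RAC1, a small GTPase that acts with the complex, rose at 6 h by 0.37 ± 0.03 and 0.39 ± 0.03 and at 24 h by 0.08 ± 0.03 at 3 µM. TIAM1, an exchange factor of RAC1, fell by 0.43 ± 0.10 at 10 µM at 24 h. Over the 4 genes, 2 rose and 1 fell at each dose at 6 h, 1 rose and 1 fell at 3 µM at 24 h, and 2 fell at 10 µM.

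Of the 8 genes of the apical Crumbs module, 2 rose and 3 fell at 3 µM at 6 h, 3 rose and 3 fell at 10 µM at 6 h, and 3 fell at each dose at 24 h. INADL, the gene of the scaffold PATJ, fell at both times, by 0.85 ± 0.05 and 0.84 ± 0.05 at 6 h and by 0.35 ± 0.05 and 0.41 ± 0.05 at 24 h. CRB2, a Crumbs transmembrane protein, stood at 45.4 CPM with DMSO, 15.03 CPM with 3 µM and 11.8 CPM with 10 µM at 24 h, log2 fold changes of -1.59 ± 0.05 and -1.94 ± 0.05. At 6 h CRB2 stood at 43.4, 39.4 and 43.7 CPM. LIN7B, a small adaptor of the module, fell by 0.65 ± 0.09 at 3 µM at 6 h, and CRB1 by 0.97 ± 0.42 at 10 µM (adjusted p = 0.0424). CRB1 was barely detected, at 0.136 CPM with DMSO and 0.0681 CPM with 10 µM at 6 h, and its change at 3 µM was -0.19 ± 0.38 (adjusted p = 0.674).

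In the basolateral Scribble module, the partners of LGL, 0 of 6 genes rose with CC-671 at either dose or time by edgeR, nor at an unadjusted p under 0.05, with DESeq2, with RLE scaling or without scaling factors. Of all genes, 29.7 to 34.0% were called higher in these comparisons and 30.9 to 33.6% lower. At 6 h 6 of the module fell at 3 µM and 4 at 10 µM, and at 24 h 3 fell at each dose, or 2 without scaling factors and 4 at 3 µM and 5 at 10 µM with RLE scaling. DLG2 fell by 0.71 ± 0.21 and 0.69 ± 0.21 at 6 h, DLG5 by 0.41 ± 0.05 at 3 µM and DLG3 by 0.54 ± 0.04 at 10 µM. DLG2 was low, at 0.720 CPM with DMSO and 0.442 and 0.446 CPM with 3 and 10 µM at 6 h. At 24 h DLG4 fell by 0.34 ± 0.07 and 0.41 ± 0.07, DLG1 by 0.20 ± 0.03 at 3 µM and SCRIB, the gene of Scribble itself, by 0.24 ± 0.03 at 10 µM. Of the PAR-1 and PAR-4 kinases, 4 of 5 fell at 3 µM and 2 at 10 µM at 6 h. At 24 h 2 of these kinases rose and 1 fell at each dose, or 4 rose and 0 fell without scaling factors. MARK4 rose at 24 h by 0.22 ± 0.03 and 0.33 ± 0.03. MARK3 fell by 0.10 ± 0.03 at 3 µM at 6 h, where its change at 10 µM was -0.03 ± 0.03 (adjusted p = 0.326), and rose at 24 h by 0.20 ± 0.03 at 3 µM and 0.26 ± 0.03 at 10 µM. MARK1 fell by 0.24 ± 0.07 at 3 µM at 6 h.

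Of 6 adaptors, regulators and substrates of atypical protein kinase C, 1 rose and 4 fell at 3 µM and 2 rose and 4 fell at 10 µM at 6 h, and 2 rose and 4 fell at 3 µM and 1 rose and 4 fell at 10 µM at 24 h. ECT2, a guanine nucleotide exchange factor that binds the PAR6 complex and acts in cytokinesis, stood at 365 CPM with DMSO and at 175 and 129 CPM with 3 and 10 µM at 6 h, log2 fold changes of -1.06 ± 0.06 and -1.496 ± 0.056. At 24 h it fell by 0.51 ± 0.06 and 0.58 ± 0.06, from 345 CPM to 242 and 231 CPM. WWC1, the gene of the kinase substrate KIBRA, fell at 6 h by 0.78 ± 0.04 and 0.74 ± 0.04. SQSTM1, the gene of the adaptor p62, stood at 304 CPM with DMSO and at 405 and 441 CPM with 3 and 10 µM at 24 h, a rise of 0.41 ± 0.06 and 0.54 ± 0.06, after levels of 330, 201 and 215 CPM at 6 h.

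Of 4 tight junction anchors, 1 rose and 2 fell at 3 µM and 2 rose and 2 fell at 10 µM at 6 h, and 1 rose and 2 fell at each dose at 24 h. TJP1, the gene of ZO-1, stood at 251.3 CPM with DMSO and at 93.2 and 84.7 CPM with 3 and 10 µM at 6 h, log2 fold changes of -1.43 ± 0.04 and -1.57 ± 0.04, and fell by 0.44 ± 0.04 at both doses at 24 h. F11R, the gene of the junction protein JAM-A that recruits PAR3, rose at 6 h by 0.32 ± 0.03 and 0.43 ± 0.03. Of the 6 other protein kinase C genes tested, 4 fell at each dose at 6 h, and 1 rose and 2 fell at each dose at 24 h. PRKCA, the gene of the alpha isoform, stood at 86.1 CPM with DMSO and at 34.5 and 33.3 CPM with 3 and 10 µM at 6 h, log2 fold changes of -1.32 ± 0.06 and -1.37 ± 0.06, and fell by 0.64 ± 0.06 and 0.76 ± 0.06 at 24 h. PRKCQ, at 1.46 to 4.32 CPM in the group means, fell by 1.03 ± 0.10 and 1.19 ± 0.10 at 6 h and rose by 0.32 ± 0.09 and 0.39 ± 0.09 at 24 h.

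**Figure D4:**
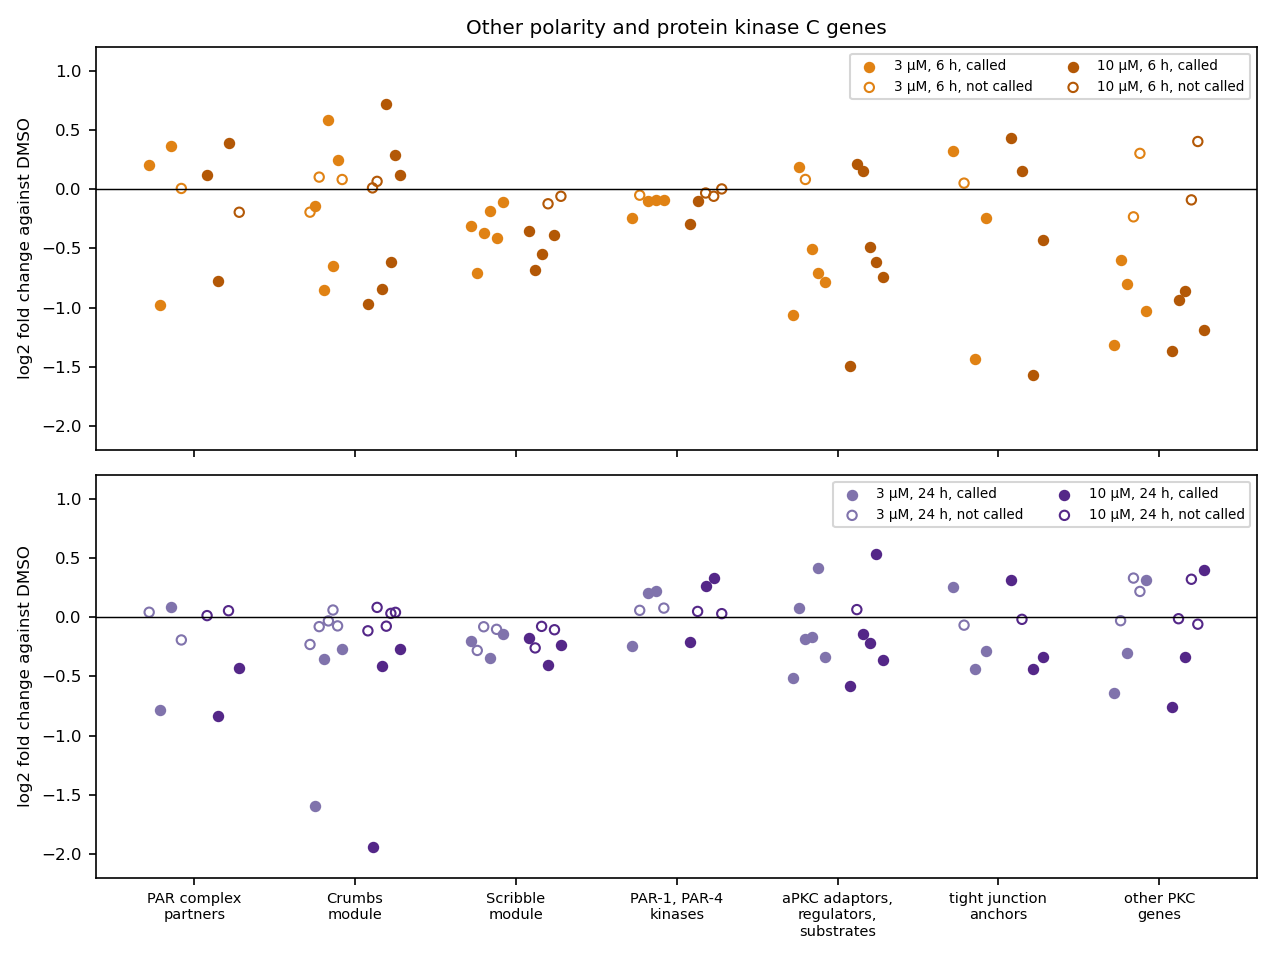
Log2 fold change against DMSO of the same time (y axis) of 39 other polarity and protein kinase C genes in 7 lists (x axis), at 6 h (upper) and 24 h (lower); each point is a gene at a dose and filled points passed an adjusted p of 0.05. At 6 h the points reach -1.57 for TJP1, and at 24 h CRB2 stands lowest at -1.94.

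The genes whose levels followed PRKCI most closely over the 16 libraries were sought among 12181 genes. Likeness was the root mean square difference in log2 CPM after each gene was centred on its own mean, which had a median of 1.17 over those genes. The 5 nearest were SFR1 at 0.118, UTP6 at 0.180, SRBD1 at 0.191, ATP7A at 0.218 and LYRM7 at 0.227. SFR1 acts in recombination repair, UTP6 in ribosome biogenesis, ATP7A in copper transport and LYRM7 in the assembly of a respiratory complex. The 6 h libraries entered this choice, so a fall at 6 h like that of PRKCI follows from it. SFR1 changed by -2.25 and -2.48 at 6 h and by -0.20 and -0.14 at 24 h, and LYRM7 by -2.46 and -2.99 and by -0.55 and -0.57. PRKCZ was at a distance of 0.780 from PRKCI and ranked 815.

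PRKCI was also set beside its 3 nearest tested genes on each side in GENCODE 29. None of the 6 resembled it at 6 h, where they ranged from -0.61 for GPR160 at 10 µM to 0.54 for CLDN11 at 10 µM. PHC3, the nearest before it, changed by 0.21 ± 0.04 and 0.23 ± 0.04 at 6 h and 0.57 ± 0.04 and 0.65 ± 0.04 at 24 h. SKIL, the nearest after it, changed by -0.11 ± 0.04 and -0.04 ± 0.04 at 6 h and 0.07 ± 0.04 and 0.18 ± 0.04 at 24 h.

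**Figure D5:**
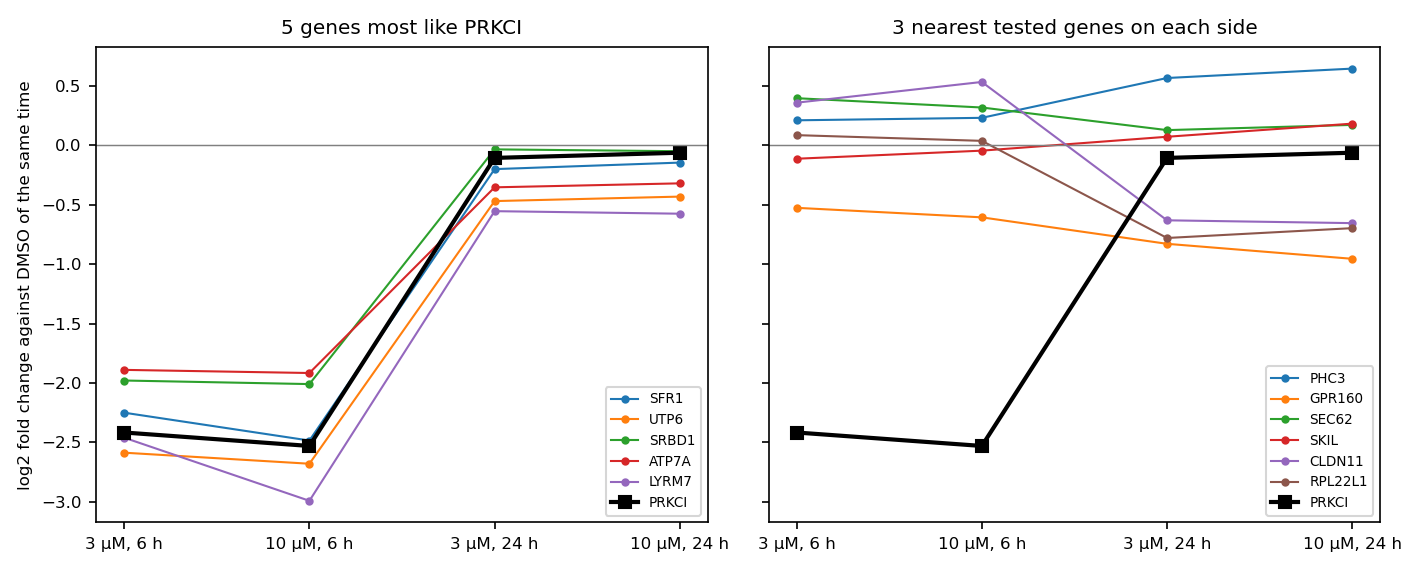
Log2 fold change against DMSO of the same time (y axis) at the 4 dose and time points (x axis) for PRKCI (squares) with the 5 genes most like it over 16 libraries (left) and with its 3 nearest tested neighbours on each side (right). The 5 like genes, chosen by their likeness over these same libraries, lie between -1.89 and -2.99 at 6 h. The neighbours, chosen by position, lie between -0.61 and 0.54.

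The changes at 6 h, and less so at 24 h, differed with the number of exons of a gene. The share of read pairs outside exons differed with treatment. PRKCI has 18 exons in its longest transcript in GENCODE 29, as does PRKCZ, PARD3 has 25, LLGL1 24, LLGL2 26 and each PARD6 gene 3. The 1211 genes within 2 exons of PRKCI and PRKCZ had a median log2 fold change at 6 h of -0.22 at 3 µM and -0.26 at 10 µM, and the 3093 genes within 2 exons of the PARD6 genes had medians of 0.12 and 0.12. The 568 genes within 2 exons of PARD3 had medians of -0.35 and -0.40. The 659 within 2 exons of LLGL1 had -0.32 and -0.40, and the 480 within 2 exons of LLGL2 -0.37 and -0.42. The exon ranges around PARD3, LLGL1 and LLGL2 overlap, so these medians are not independent of each other. At 24 h the medians were -0.10 and -0.11 for the genes near PRKCI and PRKCZ and -0.03 and -0.03 near the PARD6 genes. They were -0.14 and -0.15 near PARD3, -0.13 and -0.13 near LLGL1 and -0.16 and -0.17 near LLGL2. Of the uniquely aligned read pairs, those outside annotated exons made up 4.57% ± 0.27 (SD, n = 2) with DMSO, 5.91% ± 0.38 (n = 3) with 3 µM and 6.65% ± 0.38 (n = 3) with 10 µM at 6 h. At 24 h the shares outside exons were 4.43% ± 0.24 (n = 2), 5.80% ± 0.17 (n = 3) and 5.93% ± 0.20 (n = 3). Their part in the changes of the 8 genes was not tested, since the counts give no split by exon or intron within a gene.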

How the data were processed

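RNA-seq libraries of CAL51 cells, 16 in all, were analysed from 6 groups: DMSO, 3 µM and 10 µM CC-671, each at 6 h and at 24 h. The authors deposited raw counts of read pairs per gene symbol, 1 table per library. Per the submitters' processing notes, STAR, HTSeq and edgeR were used with hg19 (GRCh37), and per the labels' protocols the libraries were strand-specific. For versions, strand setting, overlap mode and annotation release, nothing was found: not given in the sources used here. Non-gene entries, 16.9 to 20.2% of pairs, were left out of library sizes and tests.

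Groups came from the titles. The 8 genes and all lists were chosen with earlier results of these data known. Genes were filtered by filterByExpr (minimum count 10, minimum total 15), scaled by TMM (factors 0.963 to 1.05) and fitted as 6 group means with edgeR 4.0.16 (robust quasi-likelihood F test, R 4.3.3, two-sided). P-values were adjusted by Benjamini-Hochberg over 22007 genes, and values under 0.05 counted as called. The SE is the absolute log2 fold change over the square root of F. All 8 members were named, with up to 2 genes per list and comparison with DMSO, those called with the largest absolute change; a gene that this rule names is not reported here. Exons, overlaps and neighbours came from GENCODE 29 on GRCh38 by symbol, and 89.9% of the genes whose mean log2 CPM reached 1 matched. The fit was tested on simulated data.

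Alternatives were a replicate block, RLE scaling, libraries without scaling factors, tests without a count filter, a stricter filter (1 CPM in 5 libraries), only the groups compared, DESeq2 1.42.0 and each library left out. Protein sequences were not used here.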

Additional observations from a re-analysis of the deposited data

Results flagged for a closer look

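LLGL1, the gene of an LGL protein, lay on opposite sides of DMSO at the 2 times at 3 µM. Its libraries were all lower than DMSO at 6 h and all higher at 24 h. The 24 h effect exceeded the 6 h effect by 0.31 on the log2 scale. PARD6A, the gene of a PAR6 adaptor, did so at 10 µM, with all libraries higher at 6 h and all lower at 24 h, and a difference of effects of -0.61. Neither difference was tested, because the 6 h effects belong to the comparison that chose the genes. The share of all genes whose libraries separate from DMSO in this way was not counted. Nothing particular to these 2 genes is therefore read from the separation. PARD3 with 3 µM at 24 h also lay wholly above DMSO, at an adjusted p of 0.49 by edgeR. The 24 h changes alone did not pass the threshold for LLGL1 at 3 µM or for PARD6A at 10 µM.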

How the results depend on the processing

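Of 936 alternative values for single members, 855 kept their side of the threshold or, where untested, moved by less than 1 SD (changes of sign were counted only where a value was called), 12 lost a call, 22 gained one, 46 moved by more and 1 reversed. The reversed value was that of PARD3 with 10 µM at 24 h, which was 0.0990 without scaling factors. Of 61 alternative counts of changed members, those against DMSO at 6 h left out, 45 stayed within 1.5 times. The count of members between the doses at 6 h was 1 and became 2 with RLE scaling, without scaling factors and without the filter, and 3 with DESeq2, and leaving out 1 library gave 1 to 2. Between the doses at 24 h, leaving out 1 library gave 0 to 1 members. With 3 µM at 24 h, 4 members were called, 6 under the stricter filter or with only the groups compared, and 3 to 4 with 1 library left out. With 10 µM at 24 h, 3 members were called, and 5 without scaling factors or with only the groups compared. Between the DMSO groups 1 member was called, and 2 without scaling factors, with the stricter filter or with DESeq2. The PRKCI difference of effects became 2.5638 at 10 µM and 2.3901 at 3 µM without scaling factors, and over libraries left out it ranged from 2.4191 to 2.5455 at 10 µM. Over all genes, calls between the doses numbered 1397 at 24 h and 5480 at 6 h, and 3712 and 3379 in fits of only the groups compared. Higher genes were 39.3% of the calls between the doses at 24 h, and 50.2% without scaling factors. The cause of these shifts was not tested. Replicate numbers did not pair the libraries: deviations from the group means correlated at -0.06 on average over 36 pairs with the same number (-0.523 to 0.545, of which 11 were over 0.1) and at 0.03 over 70 others, and 3 of 16 libraries correlated best with their own number. With the replicate block, the counts of changed members were 4 and 3 at 24 h, at 3 and 10 µM, and 1 in each comparison between doses or DMSO groups, as without it, and the block changed no call of a member in these. Depth limited PARD6A most, at 439 to 638 pairs per library.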
